A study of Mus musculus with 8 samples.

Results

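Nuclear tRNAs for leucine, serine and selenocysteine were examined in mouse bone marrow-derived macrophages (BMDMs) cultured with Macrophage-Colony Stimulating Factor (M-CSF) or without it. They are called class II or long-arm tRNAs here. They were taken from the small RNA tables as every feature of the UCSC tRNA annotation whose name carried Leu, Ser or SeC. The rule found 55 features, of which 54 were nuclear and 1, chrM.tRNA1-LeuTAA, was a mitochondrial tRNA that was kept apart. The 54 nuclear copies stood beside 372 nuclear tRNAs of other amino acids in the Ion Proton table and 369 in the SOLiD table, among 3514 features listed in either table.

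The cells came from bone marrow of 10-week-old male C57BL/6J mice, differentiated in medium with L929-conditioned supernatant, a source of M-CSF. Control cells stayed in complete medium, and the others were cultured without M-CSF for 36 h, an apoptotic stimulus for macrophages. No sample carried a transgene or a deletion, and the labels did not say whether libraries came from separate mice. The methods call the Ion Proton libraries biological replicates, and p-values measure the spread between these libraries. Total RNA gave 2 control and 2 withdrawal libraries on the Ion Proton and 1 of each on SOLiD. A further SOLiD pair, 1 library per condition, was made from RNA cut from a gel at 25–40 nt.

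Transfer RNAs carry amino acids to the ribosome and read the codon through the 3 bases of the anticodon. Most tRNAs have a variable loop of a few bases between the anticodon stem and the T stem, whereas tRNAs for leucine, serine and selenocysteine have a long variable arm that folds into a stem and loop. Seryl-tRNA synthetase, which charges both serine and selenocysteine tRNAs, recognises that arm. Stressed and dying cells cleave tRNAs into fragments, for which angiogenin is the best known nuclease. Reads of small RNA libraries on tRNA genes can therefore come from fragments or partial copies, and do not measure intact, charged tRNA. Read lengths and positions were not examined here.

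The copies below are shown because the results turn on them or on the question of which copy a read belongs to. The tRNA coordinates are those of the tables, in mm10 (GRCm38), and the letters were read from GENCODE M21 transcripts of the same build or, for the LeuAAG copy of chromosome 7, from a RefSeq GRCm38.p6 promoter. Letters run 5′ to 3′ on the tRNA strand, with the anticodon and the variable arm in capitals. The chromosome 7 LeuAAG copy is shown from position 12 to 82 of 82 and the LeuTAA copy from position 1 to 80 of 83.
chr7.tRNA561-LeuAAG, chr7:120917528-120917598, plus strand: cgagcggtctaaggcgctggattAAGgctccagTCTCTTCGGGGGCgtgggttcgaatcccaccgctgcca
chr10.tRNA1326-LeuTAA, chr10:12922574-12922653, minus strand: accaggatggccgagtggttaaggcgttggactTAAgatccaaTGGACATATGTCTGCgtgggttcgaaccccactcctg
chr13.tRNA112-SerTGA, chr13:23518146-23518227, plus strand: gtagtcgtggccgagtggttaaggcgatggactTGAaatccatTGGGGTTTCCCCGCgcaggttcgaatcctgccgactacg
chr4.tRNA16-SerAGA, chr4:10874064-10874145, plus strand: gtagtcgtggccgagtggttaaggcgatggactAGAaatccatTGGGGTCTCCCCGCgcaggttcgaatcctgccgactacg
chr13.tRNA982-SerGCT, chr13:22050686-22050767, minus strand: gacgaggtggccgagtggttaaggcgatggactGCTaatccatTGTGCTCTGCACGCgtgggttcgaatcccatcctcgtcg
chr16.tRNA829-LeuAAG, chr16:3012009-3012080, minus strand: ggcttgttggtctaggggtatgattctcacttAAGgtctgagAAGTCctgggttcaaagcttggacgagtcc

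The arm is 13 nt in the LeuAAG copy of chromosome 7, 15 nt in LeuTAA and 14 nt in the serine copies. In 8 intron-free tRNAs of other amino acids whose sequence was at hand it was 4 to 5 nt. The SerTGA and SerAGA copies are both 82 nt long and differ at 2 positions, T34A in the anticodon and T50C in the arm, counted from 1 at the 5′ end of SerTGA. Their first 33 and last 32 bases are the same, so that a fragment from either end fits both. The 72-nt LeuAAG copy has an arm of 5 nt and no long arm. It shares its whole sequence with the other two 72-nt LeuAAG copies. Aligned end to end it matches 60 of 72 bases of a proline tRNA, chr11.tRNA372-ProTGG, whose sequence was complete. It matches 52.6% of its alignment with the LeuAAG copy of chromosome 7. That sequence lacked its first bases, so the 2 values are not on equal terms.

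Length separated most members from the other nuclear tRNAs. The members were 71 to 107 nt long with a median of 82 nt, and 49 of 54 had 80 nt or more. The others were 70 to 96 nt long with a median of 72 nt, and 20 of 372 had 80 nt or more, among them the intron-bearing TyrGTA, ArgTCT and IleTAT genes. The 5 short members were the 3 LeuAAG copies of 72 nt, SerGGA of 73 nt and one SeCTCA copy of 71 nt. The LeuCAA genes, which carry an intron, had 105 to 107 nt. By length alone 49 copies have room for the long arm, and the results on LeuAAG are given with and without its short copies.

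The members spread over 11 anticodons, with 10 copies of LeuCAG, 8 each of LeuAAG, SerAGA and SerGCT, 4 each of LeuCAA and LeuTAA, 3 each of LeuTAG, SerCGA and SerTGA, 2 of SeCTCA and 1 of SerGGA. RefSeq named 47 of the 54 at the same coordinates. Chromosome 13 held 19 of them, between chr13:21170036 and chr13:23521951. Of the 54, 41 overlapped no other GENCODE gene, 8 overlapped an exon of a non-coding transcript (for 3 of them, SerTGA and SerAGA copies, an entry typed as a miRNA at the tRNA itself) and 5 lay in introns. The intronic ones include chr3.tRNA1026-LeuCAG in Naaladl2. The LeuAAG copy chr7.tRNA561 lay in the promoter window of Polr3e, which encodes a subunit of RNA polymerase III, the polymerase that transcribes tRNA genes.

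Depth was 4039837 to 12178454 reads on listed features per library. The cell type was compared with miRNA markers. The myeloid list was miR-223-3p, miR-142a, miR-21a-5p and miR-155-5p, of which miR-142a entered the Ion Proton sums only. Its sum was 43671 to 64359 CPM in the Ion Proton libraries, against 20.9 to 32.1 CPM for a list of other-cell miRNAs. There the other-cell list covered liver, red cell, smooth muscle, epithelial and lymphocyte miRNAs. It was led by miR-143-3p of smooth muscle, with 9.05 to 18.7 CPM. Its miR-133a-3p (muscle), miR-126a-3p (endothelium) and miR-145a-5p (smooth muscle) had values in SOLiD only. Most of the myeloid sum was miR-21a-5p, which many cell types express, at 42646 to 63063 CPM, while miR-223-3p, a myeloid miRNA, had 66.9 to 96.5 CPM. In the SOLiD libraries the sums were 72338 to 371531 RPM and 3753 to 6048 RPM, with 4473 to 11725 RPM of miR-223-3p. In SOLiD the other-cell list was led by miR-451a of red cells. The part of these other miRNAs in the tRNA results was not tested. The share of reads on miRNAs was lower after withdrawal in each pair, 40.4% and 41.6% against 29.99% and 30.3% in the Ion Proton run and 82.2% against 41.3% in SOLiD total RNA. CPM and RPM are shares of each library, so a rise of tRNA reads and a loss of miRNA reads cannot be told apart on these scales, nor can RNA per cell and number of cells. RIN, a measure of intact RNA, was 8.8 and 8.4 in control and 8.9 and 8.4 in withdrawal samples of the Ion Proton run, 8.4 in control and 7.5 in withdrawal total RNA of SOLiD, and 2.7 and 2.6 in the 25–40 nt samples. The part of RNA integrity in the SOLiD changes was not tested.

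The first comparison asked whether the class as a whole moved with withdrawal. In the Ion Proton run it had 4236 and 3990.3 CPM in control cells and 5537 and 5548 CPM after withdrawal, with all copies summed. The 2 groups did not overlap, and the mean was 1.35-fold higher after withdrawal (exact two-sided permutation test, p = 0.333, the smallest p that 2 against 2 libraries allow). As a share of all nuclear tRNA reads the class was lower after withdrawal. It took 1.59% and 1.5% of them in control cells and 1.18% and 1.24% after withdrawal (exact permutation p = 0.333). Nuclear tRNAs of other amino acids had a mean 1.73-fold higher after withdrawal in the same libraries. Because a read could be counted at several copies, these sums weigh anticodons with many copies more. With the most-read copy of each anticodon only, the share was 2.19% and 2.03% in control cells and 1.84% and 1.97% after withdrawal. The copy was chosen over both conditions, and for LeuAAG and LeuTAG it led in the withdrawal libraries only.

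In the SOLiD run the share was larger, and higher after withdrawal when copies were summed. In total RNA the class took 7.54% of nuclear tRNA reads in control cells (95% Wilson interval 7.47% to 7.61%) and 10.8% after withdrawal (10.8% to 10.9%). In 25–40 nt RNA it took 16.8% (16.7% to 16.9%) and 19.3% (19.2% to 19.3%). Such intervals cover counting error only, and take each count as a separate read. Some copies had the same SOLiD value in every library, among them chr1.tRNA701, chr1.tRNA703 and chr1.tRNA705 of LeuCAG. Where a read was counted at more than 1 copy, the intervals of summed copies are too narrow. With 1 library of each kind there was no test. With the most-read copy only, the share in total RNA was 8.61% in control cells and 11.3% after withdrawal, but 22.8% in control and 15.8% in withdrawal 25–40 nt RNA, so that the direction in the size-selected pair depended on how copies were counted. The choice of copy used reads of both conditions. For LeuCAG and SerTGA it took chr3.tRNA1026 and chr13.tRNA112, which led in the SOLiD withdrawal libraries only. The share by most-read copy is therefore no independent check of the summed share. On the RPM scale the class had 7635 and 45607 RPM in total RNA, and 14732 and 79511 RPM in 25–40 nt RNA.

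**Figure D1:**
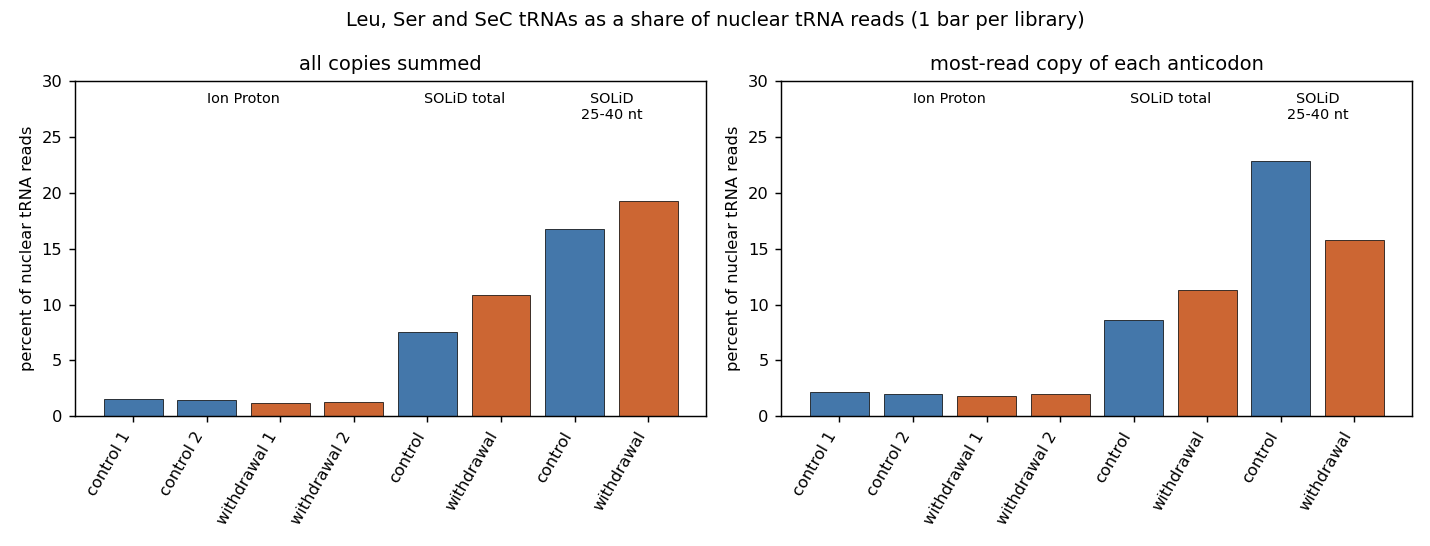
Share of nuclear tRNA reads (percent) on Leu, Ser and SeC tRNAs, 1 bar per library, blue for control and orange for M-CSF withdrawal, with all copies summed (left) and the most-read copy of each anticodon (right). The Ion Proton bars lie between 1.18% and 2.19%, and the 25–40 nt pair changes order between the panels.

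Which anticodons moved was tested next. In the Ion Proton run, 3 of 11 anticodons with copies summed passed the threshold upward in edgeR's quasi-likelihood test, against 7.53% of all 1660 features tested, and none passed downward, against 5.60%. Without adjustment, 7 of the 11 had p under 0.05. The labels do not say whether same-lettered libraries of the 2 conditions were paired. With a replicate block in that fit 0 of the 11 were called, and 7 of all 1660 features. The median log2 fold change was 0.61 over the 11 anticodons, 0.81 over the 40 anticodons of other amino acids, of which 24 were called higher, and 0.02 over all features. When the 3 control and 3 withdrawal libraries of total RNA from both runs were fitted together in limma with a run term, 2 of 11 were called higher, against 6.28% of 1337 features, and 0 lower, against 6.96%. Of the 40 anticodons of other amino acids, 18 were called higher in that fit. With 1 copy per anticodon, the most read in each table, 3 of 11 were higher in the Ion Proton run, against 6.57%, and 0 lower, against 0.964%. In both runs 2 of 11 were then higher, against 6.13%, and 0 lower, against 7.33%. Among the 40 anticodons of other amino acids, 20 were then higher in the Ion Proton run and 16 in both runs. That choice of copy used reads of both conditions. For LeuAAG and LeuTAG, which were called in both of these fits, it took copies that led in the Ion Proton withdrawal libraries only, so their calls there add nothing to those of the summed copies. In the Ion Proton control libraries the leading copies were chr16.tRNA829-LeuAAG, with a log2 fold change of 1.13 as a single copy (adjusted p = 0.00273 in edgeR), and chr7.tRNA863-LeuTAG, with 0.49 (adjusted p = 0.102 in edgeR). With copies summed and no adjustment, 5 of the 11 had p under 0.05 in the fit of both runs.

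**Figure D2:**
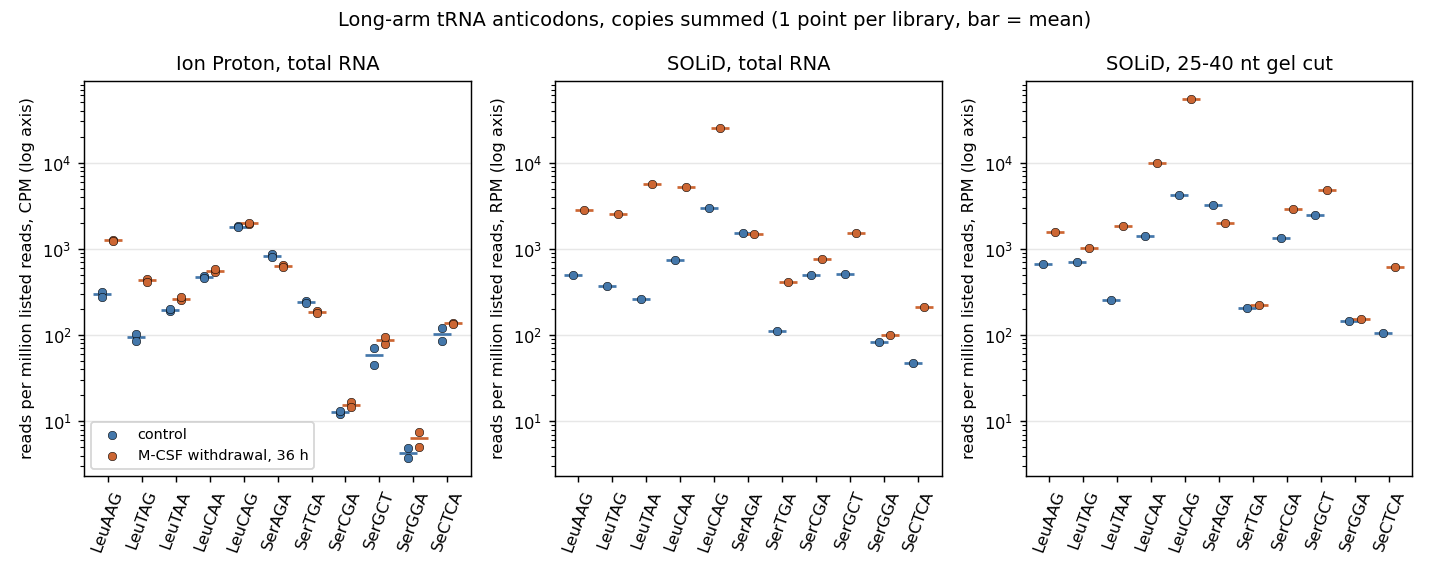
Reads per 1000000 listed reads (CPM or RPM, log axis) of each long-arm anticodon with copies summed, 1 point per library and a bar at the group mean, in the Ion Proton, SOLiD total RNA and SOLiD 25–40 nt libraries. LeuAAG and LeuTAG are the anticodons whose withdrawal points lie farthest above the control points in the Ion Proton panel, and in the SOLiD panels LeuTAA, LeuCAA and LeuCAG do.

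LeuAAG, which reads CUU codons and by wobble CUC, rose in the Ion Proton run and in the fit of both runs. Its summed copies had 318 and 279 CPM in control cells and 1276 and 1246 CPM after withdrawal. All withdrawal values lay above all control values, with a mean of 298 ± 28 CPM against 1261 ± 21.4 CPM (SD, n = 2 each). The edgeR fit gave a log2 fold change of 2.28 (SE 0.102, adjusted p = 0.000845). In SOLiD the summed copies went from 491 (473 to 509) to 2835 (2805 to 2865) RPM in total RNA and from 662 (645 to 679) to 1572 (1534 to 1611) RPM in the 25–40 nt libraries, where brackets give 95% Wilson intervals. Across both runs limma gave 2.23 (SE 0.165, adjusted p = 0.00069). Without the 3 short copies the Ion Proton log2 fold change was 2.91 and that of both runs 2.66 (adjusted p = 0.000663 in edgeR and 0.000152 in limma).

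The LeuAAG copies fell into 3 sets. The copies chr7.tRNA561 and chr13.tRNA63 had the largest rise of all members called. The copy with most reads over the 4 libraries, chr7.tRNA561-LeuAAG, had 33.4 and 29.4 CPM in control cells and 249 and 251 CPM after withdrawal (edgeR log2 fold change 3.05, SE 0.103, adjusted p = 0.000689). In SOLiD the same copy went from 43.3 to 565 RPM in total RNA and from 38 to 248 RPM in 25–40 nt RNA. The copy chr13.tRNA63-LeuAAG, the one with most reads in SOLiD, had 33.6 and 29.5 CPM in control cells and 249 and 249.95 CPM after withdrawal and went from 158 (148 to 168) to 644 (630.3 to 659) RPM in total RNA. A second set, chr14.tRNA189, chr11.tRNA2021 and chr13.tRNA62, had edgeR log2 fold changes of 2.47 to 2.52. The 72-nt copies, with the short arm, had 1.11 to 1.13. The one named above, chr16.tRNA829-LeuAAG, had 87.6 and 79.5 CPM in control cells and 177 and 176 CPM after withdrawal. In SOLiD all 3 short copies carried the same value, 13.9 and 58.2 RPM in total RNA, whereas in the Ion Proton counts the highest was 2.31 to 2.36 times the lowest although the sequences are identical.

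LeuTAG, the leucine tRNA for CUA codons, rose with LeuAAG. Its summed copies had 103 and 85.8 CPM in control cells and 446 and 417 CPM after withdrawal (edgeR log2 fold change 2.39, SE 0.126, adjusted p = 0.00154). In SOLiD they went from 366 (351 to 382) to 2533 (2505 to 2562) RPM in total RNA and from 698 (681 to 715) to 1034 (1004 to 1066) RPM in the 25–40 nt libraries. The log2 ratio of the 25–40 nt pair was 0.57, beside a median of 0.54 over features with 10 RPM or more in both libraries. Both runs together gave a log2 fold change of 2.39 (limma, SE 0.19, adjusted p = 0.000887). The 3 copies did not move alike in the Ion Proton run. The copy chr14.tRNA709-LeuTAG had 35.4 and 30.4 CPM in control cells and 248 and 244 CPM after withdrawal (edgeR log2 fold change 2.95, SE 0.109, adjusted p = 0.000689). The copy chr7.tRNA863-LeuTAG had 35.6 and 30.9 CPM in control cells and 50.8 and 39.5 CPM after withdrawal (edgeR log2 fold change 0.49, adjusted p = 0.102). In SOLiD chr7.tRNA863 was the most-read copy and went from 208 (197 to 220.2) to 1292 (1272 to 1312) RPM in total RNA.

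LeuAAG and LeuTAG could not be separated as 2 independent results. The copies chr7.tRNA561-LeuAAG, chr13.tRNA63-LeuAAG and chr14.tRNA709-LeuTAG had Ion Proton counts whose highest was only 1.01 to 1.06 times the lowest in each library. The second LeuAAG set and chr11.tRNA401-LeuTAG were within 1.02 to 1.1 times of each other. In SOLiD the same 2 sets spread by 1.17 to 4.89 and 1.48 to 8 times. Since the Ion Proton reads were reported at up to 10 places, near-equal counts on genes with different anticodons leave the split between LeuAAG and LeuTAG uncertain.

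LeuTAA, the leucine tRNA for UUA codons, was higher in all withdrawal libraries, with a size that differed between the runs. Its summed copies had 191 and 199.7 CPM in control cells and 252 and 277 CPM after withdrawal (edgeR log2 fold change 0.64, SE 0.111, adjusted p = 0.0362). One copy, chr10.tRNA1326-LeuTAA, carried 93.5% to 94.6% of the anticodon's reads in the first control and first withdrawal library of that run. It had 179 and 187 CPM in control cells and 238 and 259.5 CPM after withdrawal. In SOLiD the summed copies went from 259 (246 to 272) to 5616 (5574 to 5658) RPM in total RNA, a fold of 21.7, and from 258 (248 to 269) to 1823 (1782 to 1865) RPM in the 25–40 nt libraries. The call in the Ion Proton run was lost without control replicate 1, without either withdrawal replicate and with library totals in place of TMM factors (adjusted p = 0.0699, 0.0764, 0.128 and 0.0598, in that order) and in limma on log2(CPM + 1) (adjusted p = 0.0507). The limma fit of both runs gave 1.77 (SE 0.738, adjusted p = 0.157), which did not pass.

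LeuCAA and LeuCAG, the leucine tRNAs for UUG and CUG codons, were higher in all withdrawal libraries and, with copies summed, passed in neither fit. Both lay near the threshold in the Ion Proton run and passed there with another count filter (filterByExpr). With its 10 copies summed, LeuCAG took 42.9% of the class reads in Ion Proton control replicate 1 and 35.3% in withdrawal replicate 1. In SOLiD its summed share was 39.1% in control and 54.6% in withdrawal total RNA, and 28.6% and 68.7% in 25–40 nt RNA. Reads counted at several copies raise these shares. With the most-read copy of each anticodon it took 21.1% and 15.3% in the same Ion Proton libraries. In SOLiD it then took 12.1% and 33.5% in total RNA and 5.65% and 53.7% in 25–40 nt RNA. That SOLiD copy led in the withdrawal libraries only. Its summed copies had 1817 and 1778 CPM in control cells and 1954 and 1987 CPM after withdrawal, an edgeR log2 fold change of 0.33 (adjusted p = 0.059). In SOLiD they went from 2986 (2942 to 3031) to 24888 (24800.4 to 24975) RPM in total RNA and from 4209.98 (4168 to 4253) to 54599.7 (54379 to 54822) RPM in the 25–40 nt libraries, or 8.34- and 13-fold. Summed LeuCAA copies had 490.2 and 458 CPM in control cells and 539 and 579.9 CPM after withdrawal (adjusted p = 0.0572 in edgeR). In SOLiD they went from 742 (719.7 to 764) to 5274 (5233 to 5314) RPM in total RNA and from 1417 (1392 to 1442) to 9826 (9730.4 to 9923) RPM in the 25–40 nt libraries. The limma fit of both runs gave 1.11 for LeuCAG and 1.10 for LeuCAA (adjusted p = 0.213 and 0.175).

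Among the LeuCAG copies, chr3.tRNA1026-LeuCAG stood apart in SOLiD. It had 72.6 and 70.5 CPM in control cells and 77.6 and 80.3 CPM after withdrawal in the Ion Proton run, below the near-equal counts of 8 other copies. In SOLiD it went from 327 (312 to 342) to 5348 (5307 to 5389) RPM in total RNA and from 336 (324 to 348) to 12673 (12564 to 12782) RPM in the 25–40 nt libraries, and was the most-read copy of both withdrawal libraries. In the SOLiD control libraries the most-read copy was chr1.tRNA1001-LeuCAG, with 422 and 971 RPM. The LeuCAA copy with most reads in SOLiD was chr11.tRNA1911-LeuCAA, with 291 and 1487 RPM in total RNA. Of the 4 LeuCAA copies 1, chr13.tRNA85-LeuCAA, was called higher in the Ion Proton run (edgeR log2 fold change 0.43, adjusted p = 0.0329), and none of the LeuCAG copies was. It is named here because it was the only one of its anticodon to pass. Another, chr13.tRNA1010-LeuCAA, was lower, with 81.6 and 74.4 CPM in control cells and 68.4 and 71.5 CPM after withdrawal. Its edgeR log2 fold change was -0.10 (adjusted p = 0.539), and it was named after its values were seen.

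SerAGA and SerTGA were lower in both withdrawal libraries of the Ion Proton run, and neither passed with copies summed. SerAGA, which reads UCU and by wobble UCC, had 859.9 and 808 CPM in control cells and 643 and 613 CPM after withdrawal with copies summed. Both withdrawal values lay below both control values, yet the summed anticodon did not pass (edgeR log2 fold change -0.21, SE 0.0851, adjusted p = 0.22). Without TMM factors it passed, with a log2 fold change of -0.41 and adjusted p = 0.0447 in edgeR, and also in limma on log2(CPM + 1) (adjusted p = 0.0354). SOLiD gave 1541 (1509 to 1573) to 1468 (1447 to 1489.9) RPM in total RNA and 3243 (3206 to 3280.2) to 1986 (1943 to 2029.6) RPM in the 25–40 nt libraries. The most-read SerAGA copy in both tables, chr13.tRNA86-SerAGA, had 123 and 117 CPM in control cells and 92.6 and 89.5 CPM after withdrawal, and in SOLiD went from 901 (877 to 925) to 616 (602 to 629.9) RPM in total RNA. It was the only SerAGA copy that was lower in SOLiD total RNA. Of the 7 higher ones, chr13.tRNA992-SerAGA went from 537 to 569 RPM and chr4.tRNA16-SerAGA, shown above, from 17.2 to 51.1 RPM, the former named after its values were seen. In both runs together the summed copies had a log2 fold change of -0.30 (limma, SE 0.152, adjusted p = 0.232), which turned to 0.33 when libraries were scaled to miRNA reads.

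SerTGA, the serine tRNA for UCA codons, had 249 and 235 CPM in control cells and 188 and 178 CPM after withdrawal (edgeR log2 fold change -0.21, SE 0.0974, adjusted p = 0.279). In SOLiD it went from 111 (103 to 120.3) to 411 (400.1 to 423) RPM in total RNA and from 207 (198 to 217) to 225 (210.4 to 239.6) RPM in the 25–40 nt libraries. The intervals of the 25–40 nt pair overlapped. The copy chr13.tRNA112-SerTGA, shown above and most read in the Ion Proton run, went from 29.1 to 172 RPM in total RNA. In the SOLiD control libraries the most-read copy was chr10.tRNA1105-SerTGA. It went from 59.2 to 81.1 RPM in total RNA and from 120 to 69.3 RPM in 25–40 nt RNA. As with LeuAAG and LeuTAG, the Ion Proton counts of SerAGA and SerTGA could not be separated. In each Ion Proton library 7 SerAGA and 2 SerTGA copies lay within 1.03 to 1.05 times of each other, while in SOLiD the highest was 12.1 to 54.7 times the lowest. The SerAGA copy of chromosome X had at most 1.03 CPM.

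**Figure D3:**
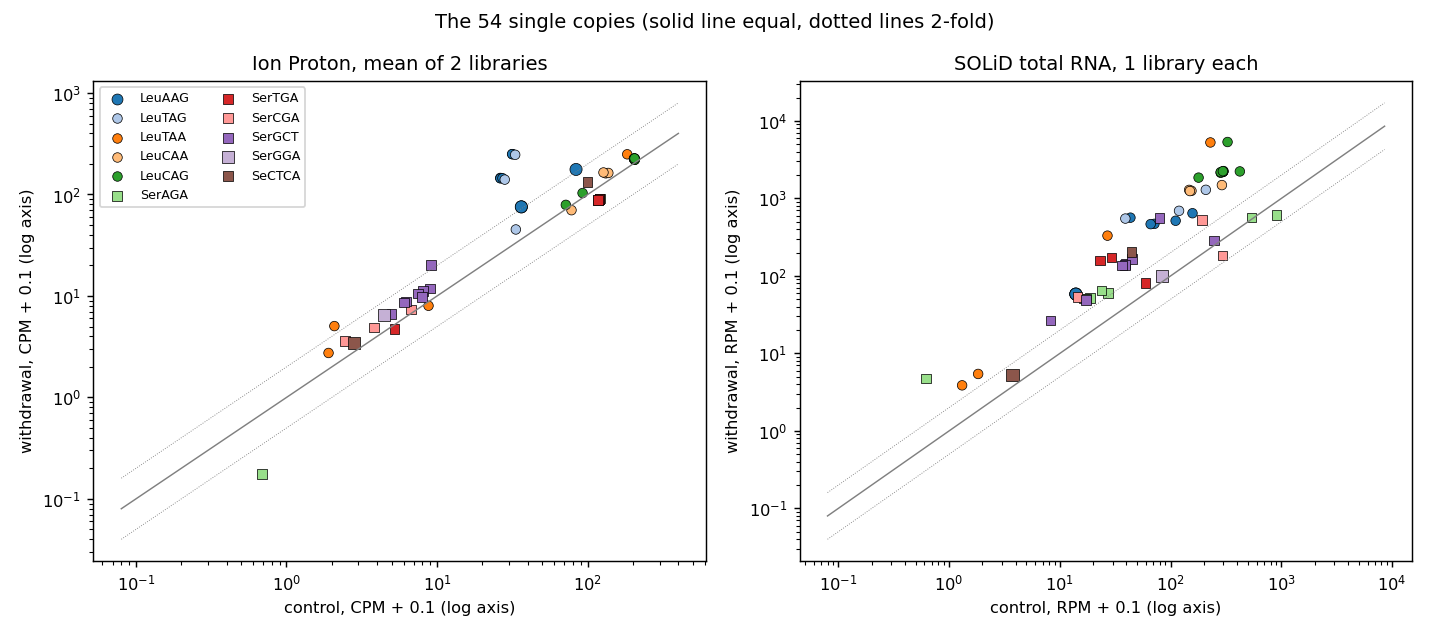
The 54 copies by their level in control (x) and withdrawal (y) libraries, as CPM or RPM plus 0.1 on log axes, for the Ion Proton run (means of 2) and SOLiD total RNA. Circles are leucine, squares serine and selenocysteine, and larger symbols copies under 80 nt. Ion Proton copies stack into a few spots where counts were near equal, and SOLiD copies spread out.

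The other serine tRNAs and the selenocysteine tRNA did not pass in either fit when copies were summed. With the filterByExpr filter SerGCT and SeCTCA did pass in the Ion Proton run. SerGCT, for AGC and AGU codons, had 70.9 and 45.1 CPM in control cells and 79 and 94.7 CPM after withdrawal, and control replicate 1 was close to the withdrawal values (edgeR log2 fold change 0.78, SE 0.25, adjusted p = 0.149). Its copy chr19.tRNA713-SerGCT was called higher alone, with 10.6 and 7.52 CPM in control cells and 16.6 and 23.5 CPM after withdrawal (edgeR log2 fold change 1.19, SE 0.28, adjusted p = 0.0453), and went from 79.7 to 563 RPM in SOLiD total RNA. The copy most read in SOLiD over its 4 libraries, chr2.tRNA1509-SerGCT, went from 245 (233 to 258) to 288 (278 to 297) RPM in total RNA. SerCGA, for UCG codons, had 12.2 and 13.1 CPM in control cells and 16.6 and 14.5 CPM after withdrawal and went from 499 (482 to 518) to 762 (746 to 777) RPM in total RNA. Its 2 leading SOLiD copies went opposite ways. The copy chr10.tRNA698-SerCGA went from 191 (180.1 to 203) to 525 (513 to 538) RPM in total RNA, and chr11.tRNA400-SerCGA, named after its values were seen, from 294 (280.3 to 308) to 183 (176 to 191) RPM in total RNA. SerGGA, 1 copy of 73 nt, had 4.9 and 3.76 CPM in control cells and 5.06 and 7.6 CPM after withdrawal and 83 (75.9 to 90.8) and 99.9 (94.5 to 106) RPM in SOLiD total RNA.

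The selenocysteine tRNA SeCTCA decodes UGA in the mRNAs of selenoproteins such as glutathione peroxidases. Its summed copies had 119 and 85.5 CPM in control cells and 139.7 and 133 CPM after withdrawal (edgeR log2 fold change 0.61, SE 0.181, adjusted p = 0.125). Nearly all of these reads came from the 86-nt copy chr7.tRNA88-SeCTCA, with 117 and 82.4 CPM in control cells and 136 and 130.02 CPM after withdrawal. In SOLiD the summed copies went from 48 (42.7 to 54) to 209.7 (202 to 218) RPM in total RNA and from 106 (99.7 to 113) to 617 (594 to 642) RPM in the 25–40 nt libraries. The withdrawal values lay above the control values in every pair, and control replicate 1 of the Ion Proton run was nearest to them.

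**Figure D4:**
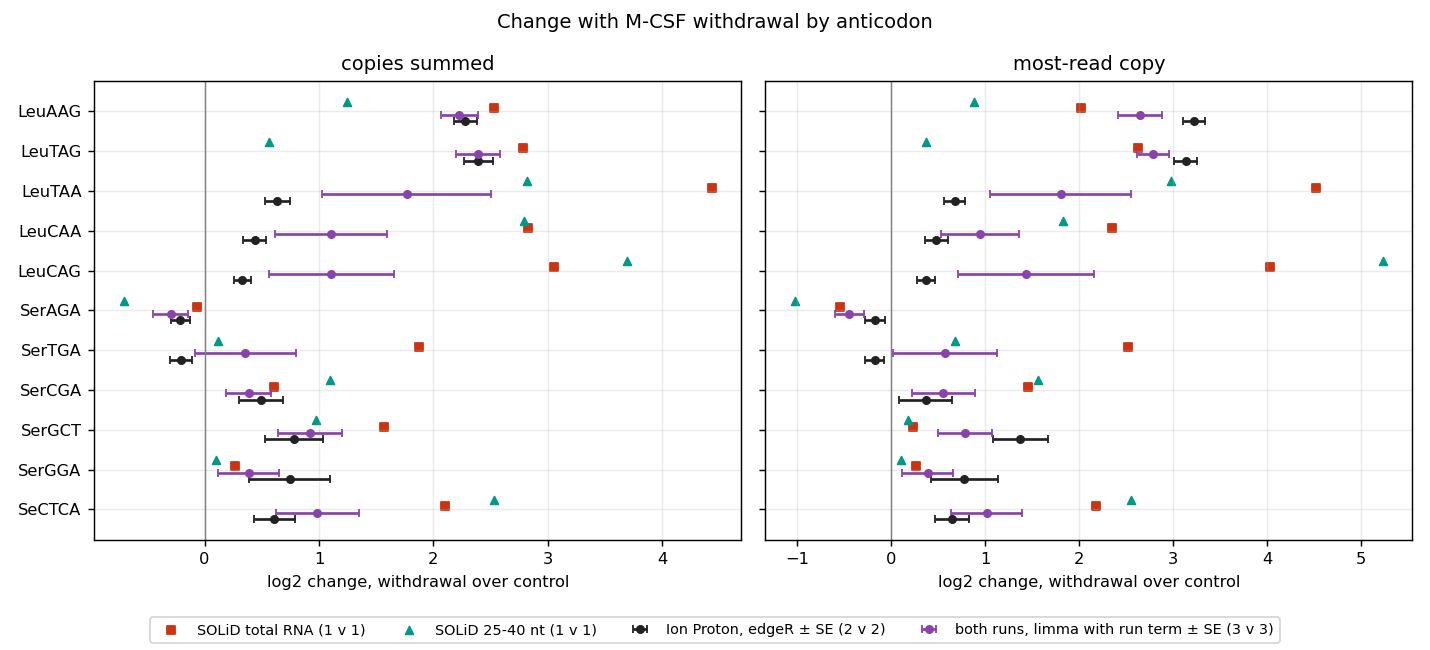
Log2 change with withdrawal of each anticodon, with copies summed (left) and the copy most read over both conditions of each table (right). Black points are edgeR on the Ion Proton libraries and purple points limma on total RNA of both runs, with bars of 1 SE, and red squares and green triangles are SOLiD log2 ratios of 1 library pair. With copies summed, the 3 estimates from total RNA lie between 2.23 and 2.53 for LeuAAG and between 0.64 and 4.44 for LeuTAA.

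Single copies were tested as well, with the shared reads described above. In the Ion Proton run all 54 passed the minimum count, and 13 were called higher, against 15.7% of 2029 features, and 9 lower, against 8.97%. Of the 366 copies of other nuclear tRNAs tested, 202 were called higher and 4 lower. The 13 higher ones were all 8 LeuAAG copies, 2 of 3 LeuTAG, and 1 each of LeuCAA, LeuTAA and SerGCT. The 9 lower ones were 7 SerAGA and 2 SerTGA copies, whose near-equal counts cannot be taken as 9 independent observations. They included chr13.tRNA996-SerTGA, with 120.5 and 113 CPM in control cells and 90.3 and 85.1 CPM after withdrawal (edgeR log2 fold change -0.36, SE 0.0871, adjusted p = 0.0482), and chr13.tRNA990-SerAGA and chr13.tRNA962-SerAGA at -0.36 each. With TMM factors from miRNAs 24 copies were called higher and none lower. None of the 9 was called with a minimum count of 1 or without control replicate 2, withdrawal replicate 1 or withdrawal replicate 2, while 10 to 11 of the 13 higher ones kept their call when any 1 library was left out.

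SOLiD copies were described by a 2-fold rule, since there was 1 library per condition. A feature could enter through the higher library of a pair alone. That favours large ratios in either direction, among members and among all features. Of 50 copies with 10 RPM or more in at least 1 library of the total RNA pair, 44 were 2-fold or more higher after withdrawal, against 42.1% of all features, and 0 were 2-fold or more lower, against 14.1%. In 25–40 nt RNA, 32 of 50 were higher, against 50.7%, and 2 lower, against 12.0%. The median log2 ratio of these copies was 2.28 in total RNA and 1.59 in 25–40 nt RNA, beside 1.75 and 1.71 for other nuclear tRNAs. Of those other tRNA copies, 247 of 312 were 2-fold or more higher in total RNA and 1 was lower. In 25–40 nt RNA 235 of 311 were higher and 1 was lower, so the rise was not particular to this class.

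Whether the change differed between the runs was then tested by an interaction of treatment and run in limma. Called differences, SOLiD minus Ion Proton on the log2 scale with SE, were 4.00 ± 0.168 for LeuTAA, 2.93 ± 0.115 for LeuCAG, 2.59 ± 0.153 for LeuCAA, 2.28 ± 0.177 for SerTGA and 1.68 ± 0.323 for SeCTCA, against 11.5% of features called (adjusted p = 0.000677, 0.000677, 0.00129, 0.0028 and 0.0397 in limma). For LeuAAG the difference was 0.45 ± 0.169 (adjusted p = 0.165) and for LeuTAG 0.60 ± 0.21 (adjusted p = 0.141), which did not pass in limma. For the most-read copy the same 5 anticodons and LeuAAG were called, against 12.0% of features. Those values set different copies side by side for LeuAAG, LeuCAG and LeuCAA, since the copy was chosen in each table, and are no second test of the same copies. For SerTGA the copy was the same, but in SOLiD it led in the withdrawal libraries only. Of the 40 anticodons of other nuclear tRNAs 24 were called with copies summed, 23 of them upward, with a median difference of 1.21 beside 0.96 for the 11 members. The SOLiD arm has 1 library per condition, which is assumed to vary as the Ion Proton libraries do. The runs also differ in library kit, RNA input and mapping, which cannot be told apart.

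Mitochondrial tRNAs for the same amino acids are transcribed from another genome and were compared for that reason. The mitochondrial LeuTAA feature had 84.8 and 65 CPM in control cells and 213 and 231 CPM after withdrawal. In the Ion Proton run with nuclear copies summed, all 4 rose in edgeR. The log2 fold changes were 1.77 for the mitochondrial LeuTAA, 3.12 for mt-Tl2, 3.80 for mt-Ts1 and 2.40 for mt-Ts2 (adjusted p = 0.0062, 0.00363, 0.000312 and 0.000735 in edgeR). Rpph1, the RNA of RNase P, which trims the 5′ ends of tRNA precursors, had 782 and 599.9 CPM in control cells and 513 and 426 CPM after withdrawal, and did not pass (edgeR log2 fold change -0.36, SE 0.164, adjusted p = 0.266).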

How the data were processed

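Small RNA libraries of mouse BMDMs were analysed from processed tables. In the Ion Proton run cutadapt 1.2.1 trimmed the reads, short ones were dropped, and Bowtie2 2.2.4 placed the rest on mm10 at up to 10 places each, from which the authors deposited raw counts per feature. The SOLiD reads went through LifeScope, and the authors deposited them per 1000000 listed reads (RPM). All SOLiD values divided by the smallest one of their library, 0.0821 to 0.248 RPM, gave whole numbers within 0.0065, which were taken as reads. The Ion Proton labels name small RNA and the methods total RNA as the input.

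Copies of each nuclear anticodon were summed, or the copy with most reads in each table was taken, over the whole table. The Ion Proton test was edgeR 4.0.16 (TMM, quasi-likelihood, summed count of at least 5) in R 4.3.3. Both runs were tested with limma 3.58.1 (log2 of CPM or RPM plus 1, treatment and run, intensity trend, at least 5 reads in each run). The SE of an edgeR log2 fold change is its size over the square root of F. DESeq2 1.42.0, other filters, scalings and pseudocounts, a replicate block and leaving out each library were alternatives. Benjamini-Hochberg adjustment ran over every feature tested (threshold 0.05), and single values were compared by exact two-sided permutation. Alignments used Biopython 1.88. Intervals were Wilson intervals at 95%, with each count taken as a separate read.

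The members and lists were chosen with earlier results of these data known. Named features are every anticodon, its most-read copies, and among called copies with a mean of at least 10 CPM the 3 largest rises and 3 largest falls. Copies of 80 nt or more only, and the interaction of treatment and run, were added after seeing the data. Sequences for the LeuCAA, LeuCAG, LeuTAG, SerCGA, SerGGA and SeCTCA copies were not used here.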

Additional observations from a re-analysis of the deposited data

Results flagged for a closer look

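The change with withdrawal differed between the SOLiD and Ion Proton runs in limma for several anticodons. With copies summed the SOLiD log2 change minus the Ion Proton log2 change was 2.59 for LeuCAA, 2.93 for LeuCAG, 4.00 for LeuTAA, 1.68 for SeCTCA and 2.28 for SerTGA. With the most-read copy of each table it was 2.10 for LeuCAA, 3.89 for LeuCAG, 4.08 for LeuTAA, 1.75 for SeCTCA and 2.93 for SerTGA. In that table LeuAAG also differed, by -0.93 (adjusted p = 0.0465 in limma), with the copy chr7.tRNA561 in the Ion Proton run and chr13.tRNA63 in SOLiD, so that 2 different copies were set side by side. Likewise LeuCAG set chr1.tRNA698 in the Ion Proton run beside chr3.tRNA1026 in SOLiD, and LeuCAA set chr13.tRNA65 beside chr11.tRNA1911. For LeuTAA, SeCTCA and SerTGA both tables had the same copy. For SerTGA that copy led in the SOLiD withdrawal libraries only, and chr10.tRNA1105 led in the SOLiD control libraries. Its difference therefore rests on a copy chosen partly by its withdrawal reads. With copies summed 24 of 40 anticodons of other nuclear tRNAs differed between the runs as well. The share of class II in nuclear tRNA reads, copies summed, was 1.44 times higher after withdrawal in SOLiD total RNA and lower in both withdrawal libraries of the Ion Proton run, a difference that was not tested.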

How the results depend on the processing

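In edgeR and limma LeuAAG and LeuTAG kept their direction in all settings tried, with log2 fold changes of 2.08 to 2.46 and 2.19 to 2.57 in the Ion Proton run and 2.08 to 2.86 and 2.19 to 3.02 in both runs, copies summed. TMM factors from miRNAs moved the median log2 fold change of all features from 0.02 to 0.20 with copies summed and from 0.08 to 0.40 for single copies, and SerAGA and SerTGA then stood at -0.03 and -0.03. Single copies called higher, 13 in the main test, numbered 24 with these factors. Copies called lower, 9 in the main test, numbered 0 with those factors, with a replicate block and with a minimum count of 1. Anticodons called higher in the Ion Proton run, 3 with copies summed, numbered 6 by DESeq2, 7 under filterByExpr, 6 and 5 with minimum counts of 1 and 10, and 0 with a replicate block, where LeuAAG, LeuTAG and LeuTAA had adjusted p = 0.0579, 0.0579 and 0.106. Those called lower numbered 1 with library totals, where the median of all features was -0.17, and 1 in limma. For the most-read copy those higher, 3 in the main test, numbered 5 by DESeq2, 7 under filterByExpr and 5 with a minimum of 1. Same-numbered Ion Proton libraries did not deviate together (correlation of deviations -0.031), so the numbers do not pair the samples. Leaving out 1 library at a time gave 0 to 9 copies called lower, and, in both runs, 0 to 2 anticodons lower with copies summed, and 2 to 4 higher and 0 to 1 lower for the most-read copy. In both runs SerTGA had -0.40 to 0.60 with copies summed and -0.40 to 0.88 for the most-read copy without 1 library, negative where a SOLiD library was left out. SerAGA reversed to 0.33 and 0.18 when scaled to miRNA reads. After centring on the median log2 ratio of features, SerAGA reversed to 0.16 in SOLiD total RNA, and SerGGA and SerTGA to -0.43 and -0.42 in 25–40 nt RNA, where the most-read copies of LeuTAG, SerGCT and SerGGA went to -0.15, -0.34 and -0.42. The class ratio of withdrawal to control was 0.761 to 0.805 for the share and 1.31 to 1.39 for CPM without 1 library. The causes were not tested. SOLiD values rest on 1 library per condition, and counting error is the only error given for them. For summed copies the intervals understate it where a read was counted at several copies.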
